A study of Mus musculus with 4 samples.

Results

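Alarmins and epithelial cytokines are the signals that keratinocytes release when the barrier is disturbed. The 10 genes described here are S100a8, S100a9, Lcn2, Il36rn, Il1rn, Il33, Il18, Tslp, Cxcl1 and Ccl20, chosen by symbol from the 32479 genes of the files, and all 10 had counts in all 4 mice. Back skin epidermis came from 2 female control mice, labelled WT, and 2 female CerS4epi-/- mice, all at postnatal day 19. The methods give control mice as CerS4fl/flK14Cre- and CerS4epi-/- mice as CerS4fl/flK14Cre+, so all 4 would carry the floxed allele of CerS4, a ceramide synthase. The floxed line was made in C57BL/6N mice, and the background of the Cre line is not given in the sources used here. The keratin-14 promoter drives Cre in basal keratinocytes of the epidermis and its appendages and in the cells that arise from them. Single-cell libraries were made with BD Rhapsody, a microwell method that tags each RNA molecule with a unique molecular identifier (UMI), so the values are estimated UMI counts. The question put to these genes was which cells carry the rise in inflammatory signals.

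S100A8 and S100A9 form calprotectin, a calcium- and zinc-binding alarmin that keratinocytes make when stressed or activated, and LCN2 is a siderophore-binding protein of the same antimicrobial response. IL-33 and IL-18 are IL-1 family cytokines kept in keratinocytes and released on damage, TSLP is a keratinocyte cytokine of type 2 inflammation, and IL1RN and IL36RN are natural antagonists of the IL-1 and IL-36 receptors. CXCL1 draws neutrophils through CXCR2, and CCL20 draws CCR6-bearing lymphocytes and dendritic cells.

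Each mouse gave 7567 to 9086 cells that passed limits of 1200 counts or more and 20% mitochondrial reads or less, at a median of 3266.5 to 3884 counts per cell. The median mitochondrial share was 8.56% to 8.66% in control and 9.68% to 9.94% in CerS4epi-/- mice. No cell barcode was shared between the 2 control libraries and none between the 2 CerS4epi-/- libraries, while pairs of libraries of different genotype shared 64 to 102 barcodes. Random draws from the 884736 possible barcodes would share 72.5 to 92.6 in each pair, so the 2 mice of a genotype have the pattern of libraries separated from 1 cartridge. The labels name no cartridge. If the mice of a genotype did share a cartridge, genotype and cartridge cannot be told apart. Leaving out both libraries of a genotype is not possible, so each mouse was left out in turn instead. Cers4 itself had 17.4 and 3.37 CPM (counts per 1000000 counts summed over the same cells) over all control cells and 4.21 and 7.71 CPM in the CerS4epi-/- mice. In the sebaceous gland-like cells, which hold most of these counts in every mouse, it stood at 2606 and 2178 CPM in control and at 276 and 439 CPM in CerS4epi-/- mice. The part of the gene that the deletion removes is not given in the sources used here, so reads outside it may remain.

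Cells were sorted into classes by UMIs of marker genes, none of which is among the 10 genes. Interfollicular epidermis (IFE) cells were split into IFE basal-like (13158 cells), IFE differentiated-like (10944) and IFE keratinized-like (2292). Cells of the upper follicle were gated on Krt79, a keratin of the infundibulum and junctional zone, into Krt79+ Cst6-low (2401 cells) and Krt79+ Cst6-high (2714), the second led by Cst6, a cystatin, and the kallikreins Klk6 and Klk10. Smaller classes were Cst6-high Krt79-low (294), Krt17+ Krt79-low (1244), Lhx2+ (181), Krt75+ (149), sebaceous gland-like (74), T cell-like (441) and Langerhans cell-like (219), and 39 cells were in none. The 10 leading genes of the Krt17+ Krt79-low class, among them Aqp9, Serpina12, Arg1, Hrnr and Cdsn, held 2 markers of keratinized IFE and none of the upper follicle or bulge, so it is called by its gate and is not counted as follicle. Between 1.83% (Langerhans cell-like) and 57.4% (Krt17+ Krt79-low) of the cells of a named class lay near a limit of its gate, and stricter gates are among the alternatives. The Krt79+ Cst6-high class held 5.55% and 3.66% of control cells and 10.7% and 12.5% of CerS4epi-/- cells. The Krt79+ Cst6-low class held 5.44% and 4.17% against 9.69% and 9.08%. These shares were not tested, and they enter every value summed over all cells.

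The promoters of the 4 genes that rose over all cells are shown first, because the 4 genes split between different cells below. Each line gives 300 bases of RefSeq sequence on GRCm38.p6, from 250 bases before the start of transcription to 50 bases after it, 5′ to 3′ on the strand of the gene. The windows are chr2:32387690-32387989 (minus strand) for Lcn2, chr3:90668821-90669120 (plus) for S100a8, chr3:90695672-90695971 (minus) for S100a9 and chr5:90890995-90891294 (plus) for Cxcl1. Capitals mark matches to the NF-kB motif (GGGA, any 4 bases, CC), the C/EBP motif (TTGC, any 2 bases, AA) or the AP-1 motif (TGA, any base, TCA), searched on both strands.
Lcn2: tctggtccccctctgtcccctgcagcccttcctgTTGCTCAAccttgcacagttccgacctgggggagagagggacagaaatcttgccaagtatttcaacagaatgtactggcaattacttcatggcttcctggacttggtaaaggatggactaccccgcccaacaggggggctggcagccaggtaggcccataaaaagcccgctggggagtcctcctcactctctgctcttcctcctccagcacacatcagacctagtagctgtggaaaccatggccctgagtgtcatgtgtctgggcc
S100a8: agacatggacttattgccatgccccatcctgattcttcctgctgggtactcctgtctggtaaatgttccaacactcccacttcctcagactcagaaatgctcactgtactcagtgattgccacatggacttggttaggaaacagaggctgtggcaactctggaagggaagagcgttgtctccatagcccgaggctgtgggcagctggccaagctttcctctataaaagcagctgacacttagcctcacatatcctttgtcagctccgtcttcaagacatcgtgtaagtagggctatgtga
S100a9: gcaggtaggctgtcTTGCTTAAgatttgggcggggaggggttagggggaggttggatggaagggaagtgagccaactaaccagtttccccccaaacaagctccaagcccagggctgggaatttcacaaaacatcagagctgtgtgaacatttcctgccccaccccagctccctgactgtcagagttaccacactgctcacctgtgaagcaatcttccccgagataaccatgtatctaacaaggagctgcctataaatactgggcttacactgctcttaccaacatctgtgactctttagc
Cxcl1: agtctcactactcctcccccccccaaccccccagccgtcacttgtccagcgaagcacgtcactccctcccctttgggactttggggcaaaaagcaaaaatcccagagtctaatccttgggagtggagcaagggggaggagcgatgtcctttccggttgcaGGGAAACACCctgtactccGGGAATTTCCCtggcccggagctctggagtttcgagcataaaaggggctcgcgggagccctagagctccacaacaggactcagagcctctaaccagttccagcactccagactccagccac
The Cxcl1 window held 3 overlapping or neighbouring NF-kB matches, at 90, 71 and 70 bases before the start. Lcn2 and S100a9 each held 1 C/EBP match, at 216 and 236 bases before the start, and S100a8 held no match to the 3 motifs. Of 32851 promoter windows in the table, 20.7% held the NF-kB motif, 10.8% the C/EBP motif and 7.81% the AP-1 motif, so single matches of this kind are common. Among the 8 members matched to the table by symbol, 3 held an NF-kB match (Il1rn, Cxcl1, Ccl20), 3 a C/EBP match (S100a9, Lcn2, Il33) and 1 an AP-1 match (Il1rn). Il36rn had no entry and Tslp was not searched. On GRCm39, the build of the counts, S100a8 (chr3:90567118-90578128) and S100a9 (chr3:90599931-90603071) are neighbours. Il36rn (chr2:24166946-24173438) and Il1rn (chr2:24226865-24241506) lie in the IL-1 gene cluster, while Lcn2 (chr2:32274645-32278264) lies farther along the same chromosome. Cxcl1 is at chr5:91039094-91040974, Ccl20 at chr1:83094487-83096888, Il33 at chr19:29902483-29938933 and Il18 at chr9:50466081-50493633. Il18 overlaps Bco2 and Tex12, and Il33 overlaps Gm41832, all on the opposite strand. The strand setting of the counting is not given in the sources used here, so a part of their counts could belong to those genes.

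Over all cells of a mouse, 4 of the 10 genes rose in CerS4epi-/- epidermis, Lcn2, S100a8, S100a9 and Cxcl1, and Il33 fell. Lcn2 was close to absent from control epidermis, with 1 count in each control mouse against 257 and 322 counts in the CerS4epi-/- mice. S100a8 and S100a9 rose together, and Cxcl1 rose with them. Il33, the alarmin stored in the nuclei of basal keratinocytes, went down in both CerS4epi-/- mice. Among all 16034 genes tested, 8.17% were higher and 6.04% lower at the same threshold (edgeR's quasi-likelihood test, adjusted p under 0.05). The 2 CerS4epi-/- mice lay on 1 side of both control mice for 8 of the 10 genes, as did 62.6% of all genes tested, so that count alone says little. In these bulk sums, more cells of a type and more RNA per cell cannot be told apart, which is why the classes follow.

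The levels of the 10 genes are in CPM after TMM scaling, edgeR's correction for differences in composition, wherever the sum was tested. S100a8 stood at 0.296 and 0.259 CPM in the control mice and at 2.27 and 2.602 CPM in the CerS4epi-/- mice (log2 difference 3.12 ± 0.25 SE, edgeR adjusted p = 0.00301). S100a9 stood at 2.17 and 2.37 CPM against 9.99 and 10.8 CPM (2.19 ± 0.13, edgeR adjusted p = 0.00205). Neither gene's groups overlapped, and the mice of a genotype lay close together. Cxcl1 stood at 7.58 and 6.98 CPM against 23.2 and 29.9 CPM (1.86 ± 0.14, edgeR adjusted p = 0.00276). Lcn2, with 0.0247 and 0.0235 CPM against 5.41 and 9.11 CPM, passed as well (edgeR adjusted p = 0.00242). It entered this fit only through the CerS4epi-/- mice, so the test adds little, and its size is best given as the ratio of the pooled levels, 290.3 with a 95% counting interval of 80.0 to 2403. Il33 was 33.6 and 41.1 CPM in control and 18.6 and 20.8 CPM in CerS4epi-/- mice (-0.93 ± 0.11, edgeR adjusted p = 0.00711).

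The other 5 genes did not pass over all cells. Il1rn stood at 99.8 and 101.5 CPM against 86.3 and 72.6 CPM (-0.34 ± 0.09, edgeR adjusted p = 0.0507), and it passed under 7 of 11 alternatives. Ccl20 was 9.38 and 6.70 CPM against 18.5 and 10.4 CPM (0.86 ± 0.28, edgeR adjusted p = 0.0969), and the second CerS4epi-/- mouse lay close to the first control mouse. Tslp, at 2.94 and 2.703 CPM against 2.63 and 1.81 CPM, was a rare transcript in every mouse (-0.33 ± 0.22, edgeR adjusted p = 0.348). Il18 (137.0 and 171.7 CPM against 173.2 and 155.8 CPM) and Il36rn (210.1 and 242.5 CPM against 247.7 and 217.4 CPM) had overlapping groups. For Il18, altered shares of classes came to -24.6 CPM and altered levels within classes to 35.0 CPM, and the 2 nearly cancelled. The summed level of 10 genes that respond to tissue dissociation was 10806 to 13363 CPM in control and 15502 to 15695 CPM in CerS4epi-/- mice, and its part in these results was not tested.

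**Figure D1:**
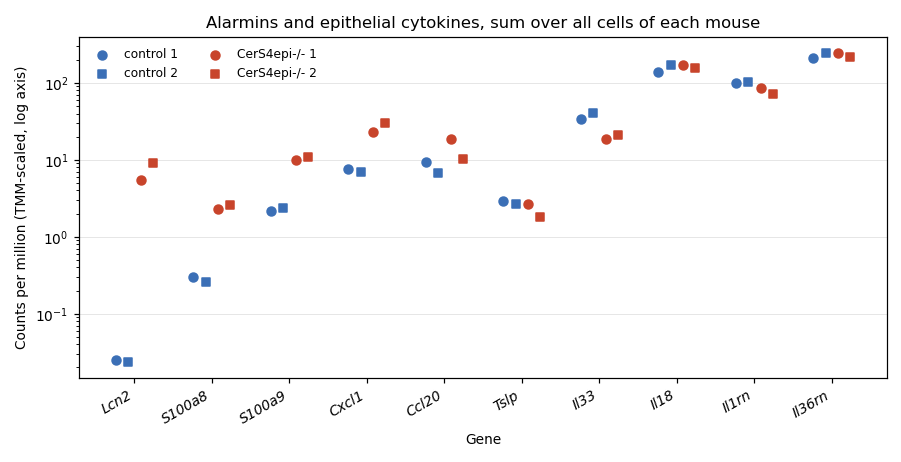
Level of each of the 10 genes over all cells of a mouse, in CPM on a log axis, with circles and squares for the first and second mouse of a genotype (blue, control; red, CerS4epi-/-). Lcn2, S100a8, S100a9 and Cxcl1 stand higher and Il33 lower in both CerS4epi-/- mice; levels of different genes are not compared.

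Neutrophils carry S100A8, S100A9 and LCN2 in large amounts, so their markers were read beside the rise. Of 10 neutrophil markers, 4 to 6 had counts in a mouse, mostly Mmp9, and their sum was 2.72 to 5.17 CPM in control and 2.60 to 3.14 CPM in CerS4epi-/- mice. Retnlg and Mmp8 were at 0 in all 4 mice, Ly6g and Ngp in all but the second CerS4epi-/- mouse, and no cell held 3 of the markers. The sum was highest in Langerhans cell-like cells, at 480.5 to 743.1 CPM, so it says little about neutrophils. The part of neutrophils in the rise was not tested.

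Lcn2 counts of the CerS4epi-/- mice were spread over several classes. The Krt79+ Cst6-high class held 28.8% and 35.7% of them, the IFE basal-like class 17.1% and 33.9%, and the sebaceous gland-like class 24.9% and 5.90%. The IFE keratinized-like class held none, although it gave 12.2% and 11.6% of all counts. In the 4 classes with a call it entered the fit only through the CerS4epi-/- mice and had to differ, so its counts are given without the test. In IFE basal-like cells it had 1 count in each control mouse and 44 and 109 counts in the CerS4epi-/- mice, a ratio of 73.2 with a counting interval of 19.9 to 610. In Krt79+ Cst6-high cells it had 0 counts in both control mice and 74 and 115 counts in the CerS4epi-/- mice, at least 18.2-fold higher than the 3 counts over the group that a count of 0 allows. In Krt79+ Cst6-low cells 0 counts stood against 28 and 39 (at least 10.7-fold higher), and in IFE differentiated-like cells 0 counts stood against 20 and 7 (at least 12.7-fold higher). The control groups lay below the CerS4epi-/- groups in all 4 of these classes. Krt17+ Krt79-low cells had 0 and 0 against 11 and 19 counts and sebaceous gland-like cells 0 and 0 against 64 and 19 counts, at least 8.57-fold and 8.62-fold higher, and neither was tested. The small Cst6-high Krt79-low class had 0 and 0 against 16 and 6 counts, at least 3.06-fold higher. There 10 of the 16 counts lay in 1 cell and all 6 in 1 cell. Lcn2 was seen in 4 of 88 and 1 of 108 of these cells, within the 4.62% and 9.09% that 0 in the control mice allows. In Krt79+ Cst6-low cells 18 of the 39 counts lay in 1 cell. These fold limits and intervals take counts as independent, so with many counts in 1 cell the true lower limits can be smaller.

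Few cells carried Lcn2, and those that did could hold many copies. It was seen in 1 cell of each control mouse and in 106 (1.18%) and 130 (1.72%) cells of the CerS4epi-/- mice, with up to 28 and 29 counts in 1 cell. After thinning every cell to 1200 counts, it was seen in 0 control cells of either mouse, which allows up to 0.0354% and 0.0330%, and in 0.433% and 0.740% of CerS4epi-/- cells. In the sebaceous gland-like class, with only 13 and 3 control cells, 7 of 27 (25.9%) and 10 of 31 (32.3%) CerS4epi-/- cells had a Lcn2 count and none of the control cells did, which allows up to 23.1% in the first control mouse and any share in the second. One of these cells held 28 of the 64 counts of the first CerS4epi-/- mouse. These cells were deep, at a median of 11057 to 19570 counts, and after thinning the shares were 7.41% and 3.23%, within what the 0 of the first control mouse allows. T cell-like cells, which should lack it, held Lcn2 in 0 of 134 and 1 of 139 CerS4epi-/- cells at a median of 1905 and 1771 counts. Barcodes of 20 to 200 counts, which hold free RNA, gave 0 Lcn2 counts in control and 5.65 and 9.40 CPM in CerS4epi-/- libraries. That is near its level in IFE basal-like cells (3.69 and 12.6 CPM). It is above that in IFE differentiated-like cells (1.29 and 0.648 CPM) and in Krt17+ Krt79-low cells (2.79 and 6.77 CPM). The part of free RNA in those classes was not tested.

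S100a9 counts lay mainly in the Krt79+ classes in both genotypes, and those of S100a8 were less even. The Krt79+ Cst6-high class held 61.4% and 56.4% of S100a9 counts in control and 54.9% and 47.3% in CerS4epi-/- mice. Within that class S100a9 stood at 32.9 and 51.5 CPM in control and at 54.3 and 43.7 CPM in CerS4epi-/- mice, and the groups overlapped (0.27 ± 0.21, edgeR adjusted p = 0.458). The class itself took 3.25% of all counts in control and 11.3% in CerS4epi-/- mice on average. Split into these 2 parts, the rise of S100a9 over all cells came to 4.40 CPM from the altered shares of classes, of which 3.66 CPM was Krt79+ Cst6-high, and 3.64 CPM from altered levels within classes. Within IFE keratinized-like cells S100a9 was higher in the CerS4epi-/- mice, at 1.35 and 1.18 CPM against 9.92 and 20.1 CPM (3.51 ± 0.41, edgeR adjusted p = 0.000218), where it passed the filter on low counts only through those mice. It rose within Krt79+ Cst6-low cells, from 6.88 and 7.56 CPM to 22.9 and 20.3 CPM (1.59 ± 0.29, edgeR adjusted p = 0.00937), a call that was lost after thinning (edgeR adjusted p = 0.41). In IFE basal-like cells it had 3, 2, 1 and 6 counts and was not tested. The small Cst6-high Krt79-low class stood at 4.75 and 125.6 CPM in control and 108.3 and 108.2 CPM in CerS4epi-/- mice (1, 11, 34 and 38 counts), and the groups overlapped. That is above the level of Krt79+ Cst6-high cells in every mouse but the first control.

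S100a8 was rarer than its partner and sat in few cells. The Krt79+ Cst6-high class held 33.3% and 72.7% of its counts in control and 47.2% and 64.1% in CerS4epi-/- mice, and sebaceous gland-like cells held 6 of the 12 of the first control mouse. The 12 and 11 control counts came from 9 and 9 cells, and the 108 and 92 CerS4epi-/- counts from 39 and 39 cells. Within Krt79+ Cst6-high cells it stood at 2.44 and 7.23 CPM in control and 10.6 and 14.2 CPM in CerS4epi-/- mice, without overlap (1.48 ± 0.45, edgeR adjusted p = 0.0506). Of the 59 counts of the second CerS4epi-/- mouse in that class, 35 came from 1 cell. In Krt79+ Cst6-low cells it had 0 and 1 control counts against 28 and 9, with 19 of the 28 from 1 cell, a ratio of 17.8 with a counting interval of 2.998 to 721, and it was not tested there. IFE basal-like cells of the CerS4epi-/- mice held none. Its highest CerS4epi-/- levels, 63.7 and 19.9 CPM, lay in Cst6-high Krt79-low cells, with 0 and 0 control counts against 20 and 7. Of those 20 counts, 18 came from 1 cell.

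Cxcl1 followed another pattern and was a basal gene in both genotypes. IFE basal-like cells held 74.3% and 76.1% of its counts in control and 64.6% and 69.5% in CerS4epi-/- mice. It rose there from 22.2 and 22.3 CPM to 59.8 and 85.2 CPM (1.70 ± 0.16, edgeR adjusted p = 0.000664), with the control mice nearly equal and both CerS4epi-/- mice far above them. IFE differentiated-like cells followed, from 2.31 and 2.78 CPM to 12.0 and 15.4 CPM (2.41 ± 0.19, edgeR adjusted p = 0.000531). In this split of the rise over all cells, 18.6 CPM came from levels within classes and 0.864 CPM from the shares of classes. The share of IFE basal-like cells with a Cxcl1 count was 4.66% and 4.63% in control and 10.9% and 13.01% in CerS4epi-/- mice, and 2.29% and 2.00% against 5.10% and 7.39% after thinning. In T cell-like cells it was at most 1.54% in any mouse, and at most 0.746% after thinning. The median depth was 2613.5 to 3052 counts in IFE basal-like and 1541 to 1905 in T cell-like cells.

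Cxcl1 was also found in the Krt79+ and Krt17+ Krt79-low classes, at lower levels. In Krt79+ Cst6-high cells it stood at 3.05 and 4.52 CPM against 12.5 and 11.3 CPM (1.70 ± 0.38, edgeR adjusted p = 0.0134). In Krt17+ Krt79-low cells it had 2 and 0 counts against 19 and 17 counts (edgeR adjusted p = 0.021), a ratio of 15.4 with a counting interval of 3.97 to 132. In both classes it passed the filter on low counts only with the CerS4epi-/- mice. Both calls were lost in DESeq2 (adjusted p = 0.14 and 0.105) and without the first control mouse (edgeR adjusted p = 0.101 and 0.114). In Krt79+ Cst6-low cells the groups nearly touched, at 15.02 and 5.29 CPM against 15.5 and 29.3 CPM (1.04 ± 0.42, edgeR adjusted p = 0.193). The summed level of the dissociation genes in IFE basal-like cells was 19055 and 18410 CPM in control and 19944 and 22371 CPM in CerS4epi-/- mice. In IFE differentiated-like cells the sum was 12360 and 9701 CPM against 16741 and 16869 CPM, and its part in either class was not tested. Free RNA in barcodes of 20 to 200 counts held Cxcl1 at 19.1 and 12.0 CPM in control and at 42.4 and 50.6 CPM in CerS4epi-/- libraries, below the level of IFE basal-like cells and above that of IFE differentiated-like and Krt79+ cells, whose share of free RNA was not tested.

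**Figure D2:**
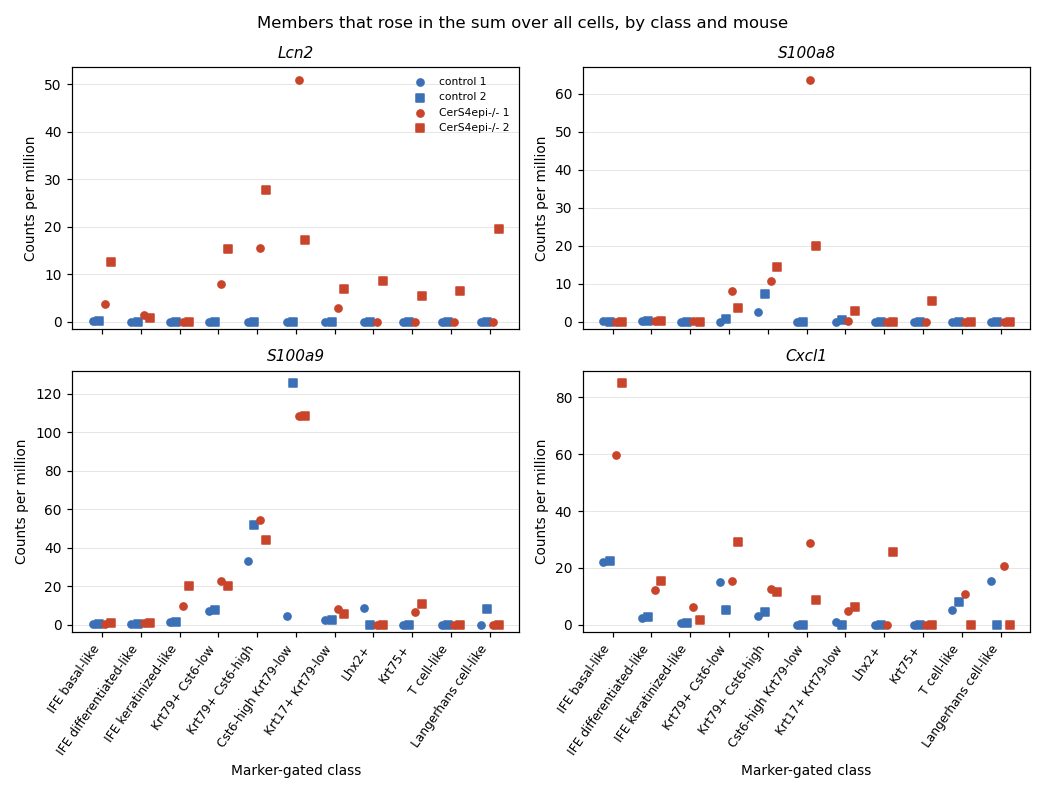
Level of the 4 genes that rose over all cells, in CPM by class, 1 point per mouse (blue, control; red, CerS4epi-/-). Cxcl1 is highest in IFE basal-like cells, S100a9 stands at 32.9 to 54.3 in Krt79+ Cst6-high cells of all 4 mice, and Lcn2 lies at or near 0 in every control class; classes with few counts give scattered points.

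The 4 rising genes thus met in the same cells only in part. Of 39 cells with S100a8 in each CerS4epi-/- mouse, 19 and 22 also held S100a9, where 0.977 and 0.881 would be met if the 2 genes were independent. Lcn2 and Cxcl1 were found together in 24 and 26 cells, where 6.74 and 9.33 would be met. Lcn2 and S100a9 were found together in 2 and 2 cells, against 2.66 and 2.94, although both sit in Krt79+ classes. S100a9 and Cxcl1 shared 5 and 2 cells, against 14.4 and 12.3. The expected numbers take all cells of a mouse together, so they also depend on which classes hold each gene. These counts are a description over cells that share a library, and deeper cells show more genes.

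**Figure D3:**
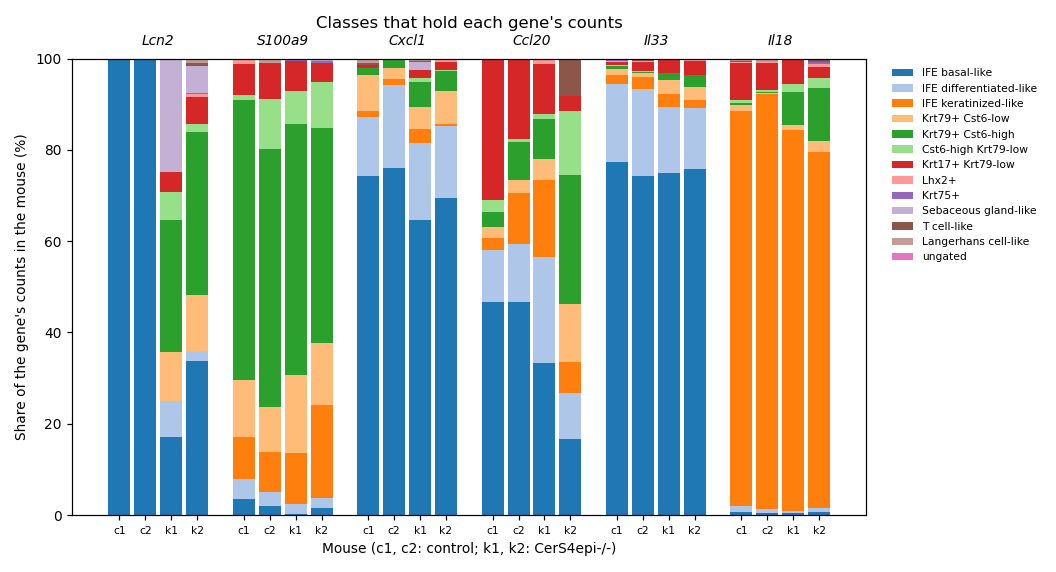
Share of each gene's counts (in percent of the mouse's counts of that gene) held by each class, 1 bar per mouse (c, control; k, CerS4epi-/-). Cxcl1 and Il33 lie mainly in IFE basal-like cells, Il18 in IFE keratinized-like cells and S100a9 in Krt79+ classes in all 4 mice; the control bars of Lcn2 rest on 1 count each.

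Ccl20 was the least even of the 10 genes. Its counts moved between classes from mouse to mouse, with 46.6% and 46.7% in IFE basal-like cells of the control mice but 33.4% and 16.6% in those of the CerS4epi-/- mice. It rose in IFE keratinized-like cells, from 1.68 and 4.21 CPM to 27.0 and 6.44 CPM (2.51 ± 0.55, edgeR adjusted p = 0.0088), mostly through the first CerS4epi-/- mouse. The call was lost without that mouse (1.07, edgeR adjusted p = 0.08) and without the first control mouse (edgeR adjusted p = 0.0671). IFE differentiated-like cells had 2.54 and 1.85 CPM against 13.2 and 3.43 CPM (1.99 ± 0.52, edgeR adjusted p = 0.053). Single cells weighed heavily, with up to 94 counts in 1 cell of the first CerS4epi-/- mouse. The T cell-like class of the second CerS4epi-/- mouse held 30 Ccl20 counts, all of them in 1 of its 139 cells, where the other 3 mice held 1, 0 and 0.

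Il33 was a basal gene, and its fall was called in IFE basal-like and IFE differentiated-like cells, classes in which Cxcl1 rose. Whether single cells held both genes was not counted. IFE basal-like cells held 74.2% to 77.3% of Il33 counts in every mouse. There it fell from 102.4 and 127.8 CPM to 55.6 and 64.7 CPM (-0.94 ± 0.12, edgeR adjusted p = 0.00236), and the groups were well apart. In IFE differentiated-like cells it fell from 13.4 and 17.3 CPM to 8.29 and 8.99 CPM (-0.84 ± 0.15, edgeR adjusted p = 0.0141), a call that was just lost without the second control mouse (edgeR adjusted p = 0.0521). Free RNA held Il33 at 24.7 and 38.5 CPM in control and at 14.1 and 10.8 CPM in CerS4epi-/- libraries. That is above the level of IFE differentiated-like cells and below that of IFE basal-like cells in every mouse. The part of free RNA in the fall in either class was not tested. Differences in the other classes tested, IFE keratinized-like, both Krt79+ classes and Krt17+ Krt79-low, were -0.60 to -0.21 and did not pass. Lhx2+ cells held 4 and 4 control counts against 0 and 2, a ratio of 0.101 with a counting interval of 0.0104 to 0.505. Il33 was not tested there. Langerhans cell-like cells held 1 and 6 control counts and none in the CerS4epi-/- mice.

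Il18 lay mainly in IFE keratinized-like cells, and it rose there and in Krt79+ Cst6-high cells. IFE keratinized-like cells held 86.5% and 90.8% of its counts in control and 83.3% and 78.1% in CerS4epi-/- mice. In Krt79+ Cst6-high cells it rose from 17.7 and 14.5 CPM to 124.2 and 155.0 CPM (3.09 ± 0.20, edgeR adjusted p = 9.06e-06), and it passed under all 12 alternatives. The summed level of the keratinized markers in that class was 6396 and 5993 CPM in control and 5711 and 5906 CPM in CerS4epi-/- mice. Other markers of the class did change, those of the inner bulge from 612.2 and 525.4 CPM to 1903 and 3186 CPM. Those of differentiated IFE went from 29914 and 31986 CPM to 18257 and 16938 CPM. The part of the make-up of the class in the rise of Il18 was not tested. In IFE keratinized-like cells Il18 rose from 807.8 and 872.9 CPM to 1259.5 and 1109 CPM (0.50 ± 0.08, edgeR adjusted p = 0.00175), a call lost after thinning (edgeR adjusted p = 0.1). There the keratinized markers were at 68675 and 67160 CPM in control and 84118 and 86683 CPM in CerS4epi-/- mice, and their part was not tested. In Krt17+ Krt79-low cells it stood at 180.0 and 144.6 CPM against 106.2 and 47.4 CPM (-1.04 ± 0.27, edgeR adjusted p = 0.0521). In Krt75+ cells it had 4 and 1 counts against 8 and 19, a ratio of 5.54 with a counting interval of 2.10 to 18.4, and in T cell-like cells 3 and 1 counts against 6 and 25, a ratio of 4.14 (1.46 to 16.2). The groups did not overlap in either class, and neither was tested. The keratinized markers of the T cell-like cells stood at 922 and 1808 CPM against 5998 and 3663 CPM, and their part was not tested. Langerhans cell-like cells had 174.8 and 417.2 CPM against 102.6 and 110.7 CPM (-1.41 ± 0.43, edgeR adjusted p = 0.381), and their keratinized markers fell beside it from 2710 and 7730 CPM to 353 and 268 CPM, a part that was not tested.

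Where they were called, the 2 receptor antagonists had small differences, both lower in IFE basal-like and Krt79+ Cst6-high cells. Il36rn alone of them was called higher in IFE keratinized-like cells. Il36rn fell in IFE basal-like cells, from 20.1 and 20.2 CPM to 12.2 and 13.7 CPM (-0.65 ± 0.13, edgeR adjusted p = 0.016), and in Krt79+ Cst6-high cells, from 275.7 and 281.2 CPM to 224.6 and 170.7 CPM (-0.49 ± 0.13, edgeR adjusted p = 0.0317). It rose in IFE keratinized-like cells, from 761.2 and 762.9 CPM to 1053 and 953.5 CPM (0.40 ± 0.08, edgeR adjusted p = 0.00429). Il1rn fell in IFE basal-like cells, from 74.7 and 74.0 CPM to 56.6 and 46.0 CPM (-0.53 ± 0.11, edgeR adjusted p = 0.0182), and in Krt79+ Cst6-high cells, from 65.3 and 62.4 CPM to 46.0 and 41.3 CPM (-0.55 ± 0.14, edgeR adjusted p = 0.0241). In IFE keratinized-like cells Il1rn was 130.1 and 131.5 CPM against 135.5 and 119.9 CPM, with overlapping groups. Free RNA held Il1rn at 74.4 and 66.7 CPM in control and at 51.3 and 41.9 CPM in CerS4epi-/- libraries. That is near its level in IFE basal-like and Krt79+ Cst6-high cells, and lower in the same genotype. Free RNA held Il36rn at 112.7 and 115.9 CPM against 102.6 and 101.9 CPM. That is above its level in IFE basal-like cells and below that in Krt79+ Cst6-high cells. The part of free RNA in these falls was not tested. Each of these 4 falls was lost without the first control mouse (edgeR adjusted p = 0.051 to 0.132). The 2 in Krt79+ Cst6-high cells were also lost in DESeq2 (adjusted p = 0.0692 for Il36rn and 0.244 for Il1rn), among cells with at most 10% mitochondrial counts (edgeR adjusted p = 0.513 and 0.0639) and without the second CerS4epi-/- mouse (edgeR adjusted p = 0.2002 and 0.0709). The difference of Il36rn there ran from -0.86 with stricter gates to -0.15 among cells with at most 10% mitochondrial counts, and was -0.30 without the second CerS4epi-/- mouse. Without the second control mouse 3 of the 4 were lost, all but Il1rn in Krt79+ Cst6-high cells (edgeR adjusted p = 0.052 to 0.115). After thinning, Il36rn lost its fall in IFE basal-like cells (edgeR adjusted p = 0.144) and its rise (0.342), and Il1rn its fall in Krt79+ Cst6-high cells (0.102). Il36rn in IFE basal-like cells was lost in DESeq2 (adjusted p = 0.0955) and at most 10% mitochondrial counts (edgeR adjusted p = 0.0887) as well. In Krt75+ cells Il36rn had 4 and 12 counts against 1 and 1, a ratio of 0.128 (0.0143 to 0.545). Il1rn had 11 and 5 against 3 and 2 there, 0.320 (0.0918 to 0.915). In Langerhans cell-like cells Il36rn had 9 and 17 against 3 and 0, 0.126 (0.0243 to 0.410). None of these was tested. Il36rn went the other way in T cell-like cells, 2.19 (1.32 to 3.84) with overlapping groups, and in sebaceous gland-like cells, 1.21 (0.702 to 2.20). Tslp, tested in IFE basal-like (-0.31 ± 0.26) and IFE differentiated-like cells (-0.21 ± 0.34), passed in neither.

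**Figure D4:**
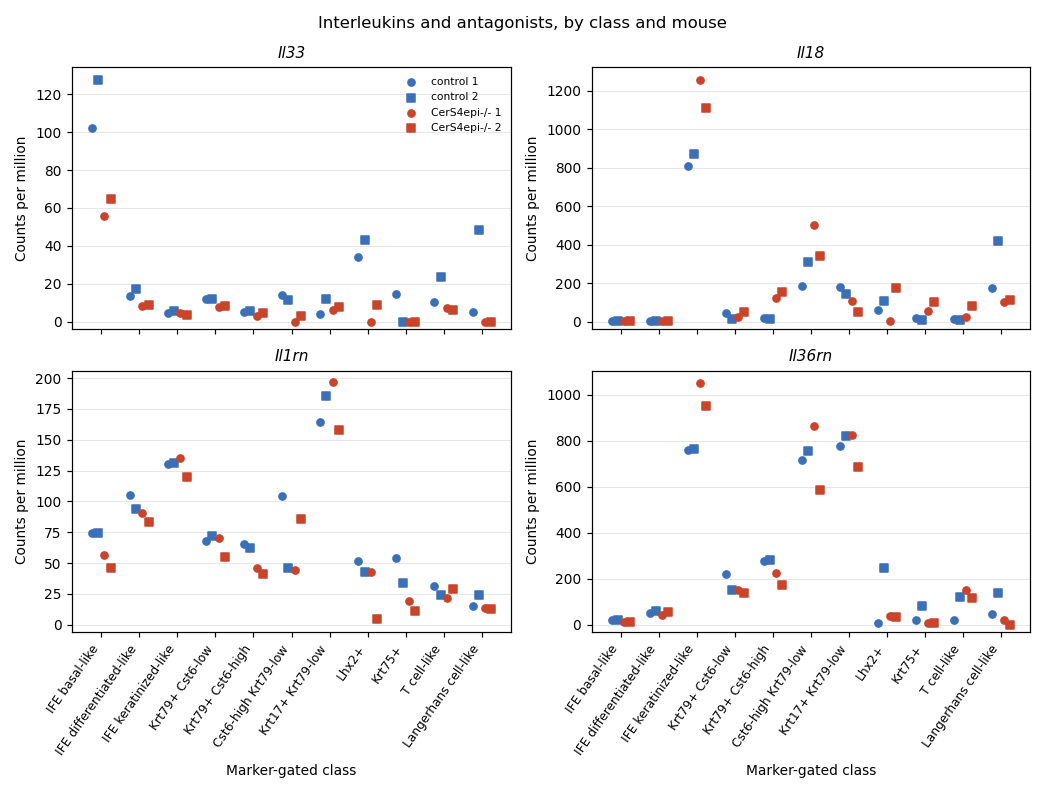
Level of Il33, Il18, Il1rn and Il36rn in CPM by class, 1 point per mouse (blue, control; red, CerS4epi-/-). Il33 is lower in both CerS4epi-/- mice in IFE basal-like cells, and Il18 in Krt79+ Cst6-high cells is 124.2 and 155.0 against 17.7 and 14.5 in control.

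Counted by class, 55 pairs of member and class passed the filter on low counts and 20 of them the test, 14 higher and 6 lower. In IFE basal-like cells 2 of 8 members rose and 3 fell, where 4.46% and 3.12% of all genes tested did. In IFE differentiated-like cells it was 2 of 9 and 1 of 9, against 4.44% and 3.86%. In IFE keratinized-like cells 4 of 6 rose and none fell, against 10.5% and 5.31%; none fell at an unadjusted p under 0.05 or in DESeq2 either. Krt79+ Cst6-low cells had 2 of 8 higher and none lower, against 2.69% and 2.62%, with 1 lower at an unadjusted p under 0.05 and none in DESeq2. Krt79+ Cst6-high cells had 3 of 9 higher and 2 of 9 lower, against 8.40% and 7.05%. Krt17+ Krt79-low cells had 1 of 7 higher and none lower, against 3.17% and 2.31%, with 1 lower at an unadjusted p under 0.05 and none in DESeq2. In edgeR none passed among 5 members in Cst6-high Krt79-low cells (all genes, 3.08%) or among 1 each in Lhx2+ (6.84%), T cell-like (0.165%) and Langerhans cell-like cells (0.656%), and no member passed the filter in Krt75+ cells (6.49%). At an unadjusted p under 0.05 there was 1 in Cst6-high Krt79-low (Il18) and 1 in Langerhans cell-like cells (Il18), and DESeq2 called none in these 4 classes. Of the 20 calls, 7 were of a member that needed its high CerS4epi-/- values to pass the filter and so had to differ, 4 of them Lcn2, and 13 were of members that passed it in both genotypes. The counts are therefore no support on their own.

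**Figure D5:**
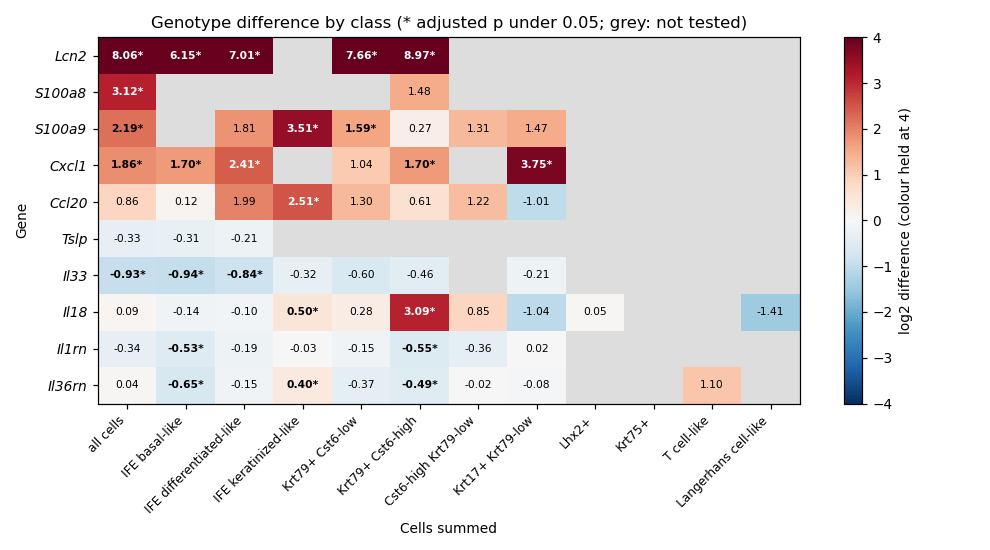
Log2 difference between CerS4epi-/- and control for each gene over all cells and in each class, with an asterisk where edgeR's adjusted p was under 0.05 and grey where the gene was not tested. Calls of Lcn2 and Cxcl1 lie in several keratinocyte classes and the rise of Il18 in Krt79+ Cst6-high cells. All calls of Lcn2, those of Cxcl1 in Krt79+ Cst6-high and Krt17+ Krt79-low cells and that of S100a9 in IFE keratinized-like cells passed the filter only with the CerS4epi-/- mice and had to differ. Values of Lcn2 in classes with 0 control counts depend on the prior count and are no estimate of size.

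Whether a difference in a class was itself unlike that in IFE basal-like cells was tested in 1 fit over all classes. It was for 3 of 100 pairs of member and class, against 2.06% of all such tests, a share close to that of all genes. Il18 differed in Krt79+ Cst6-high cells by 3.25 ± 0.75 (edgeR adjusted p = 0.00328), Il36rn in IFE keratinized-like cells by 1.08 ± 0.29 (edgeR adjusted p = 0.017) and Il1rn in the same cells by 0.53 ± 0.16 (edgeR adjusted p = 0.0401). For Lcn2, S100a8, S100a9 and Cxcl1 no such difference passed, so a rise called in one class and not in another is not shown to be particular to it.

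In control epidermis the genes had their own places before any change. Against IFE basal-like cells, 47 of 70 tests of member and class passed, where 43.2% of all such tests did (edgeR). Il18 was higher in IFE keratinized-like cells by 8.80 ± 0.21 (edgeR adjusted p = 3.48e-35) and Il36rn by 6.16 ± 0.19 (edgeR adjusted p = 2.23e-30). S100a9 was higher in Krt79+ Cst6-high cells by 7.42 ± 0.49 (edgeR adjusted p = 2.73e-17). Il33 was lower than in IFE basal-like cells in all 10 other classes tested, with log2 differences from -4.24 to -1.81. Cxcl1 in IFE differentiated-like cells differed from IFE basal-like cells by -2.96 ± 0.20 (edgeR adjusted p = 3.67e-17). Il1rn was the most even, at most 1.73 away from the IFE basal-like level in the other keratinocyte classes.

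Genes whose level over 44 sums of class and mouse ran most like a member's were listed for each, among 12669 genes with at least 200 counts. S100a8 ran with AA467197, Elf5 and S100a9 (Pearson r = 0.86, 0.77 and 0.74). S100a9 ran with 2310046K23Rik, Defb1 and Slc31a1 (0.83, 0.81 and 0.80). Lcn2 ran with Stra6, Adig and Chd9 (0.79, 0.76 and 0.74), and Cxcl1 with Gm14391, Ccl2 and Lpl (0.75, 0.74 and 0.73). Il18 ran with Dusp18, Zswim4 and Spns2 (0.91, 0.90 and 0.89) and Il36rn with Cnfn, Srpk1 and Nccrp1 (0.94, 0.93 and 0.92). Il1rn ran with Hdgf, Ybx3 and Il34 (0.88, 0.88 and 0.86), and Il33 with Slc6a2, Efemp1 and Bmp3 (0.77, 0.77 and 0.74). Tslp ran with 4930550C14Rik, H2ac23 and H2ac24 (0.84, 0.83 and 0.83), and Ccl20 with Gm20033, Casp4 and Cldnd1 (0.71, 0.70 and 0.70). These are descriptions, since the sums of a mouse share a library and differ in depth.

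The wider family of 96 genes around the members, chosen by name, was read in the same fits. Over all cells 69 were tested, and 15 rose and 4 fell, with a median log2 difference of 0.14 beside -0.000209 over all genes tested, of which 8.17% rose and 6.04% fell. By group, 3 of 22 genes of the IL-1 family rose and 1 fell, 4 of 12 chemokines rose and 2 fell, 6 of 17 antimicrobial and alarmin genes rose and none fell (also none at an unadjusted p under 0.05), and 2 of 18 type 2 and other cytokines and receptors rose and 1 fell. The counts of the first and last group are near the share over all genes and are no result about them. The 3 largest differences among those that passed were rises. Ccl1 had 5, 1, 28 and 89 counts (4.32 ± 0.99, edgeR adjusted p = 0.0373), and it entered this fit only through the CerS4epi-/- mice, so its test adds little. Ccl2, a chemokine for monocytes, stood at 1.33 and 0.517 CPM against 6.63 and 8.74 CPM (3.05 ± 0.37, edgeR adjusted p = 0.00681). Defb14, a beta-defensin, stood at 1.01 and 1.03 CPM against 6.29 and 6.05 CPM (2.59 ± 0.15, edgeR adjusted p = 0.00205).

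By class, the counts are given beside the share of all genes called higher and lower, and nothing particular to the family is read from them. In IFE basal-like cells 7 of 52 rose and 3 fell (all genes, 4.46% and 3.12%), led by Ccl1, Ccl2 (3.70 and 1.68 CPM against 17.6 and 27.6 CPM, 3.04 ± 0.32, edgeR adjusted p = 0.000883) and Defb6 (1.66 ± 0.26). In IFE differentiated-like cells 9 of 56 rose and 6 fell (4.44% and 3.86%), led by Cxcl2, the close relative of Cxcl1, with 2 and 0 counts against 14 and 21 (edgeR adjusted p = 0.0168), Il6 (4 and 3 against 13 and 13 counts) and Ccl2. Cxcl2 and Il6 entered this fit only through the CerS4epi-/- mice. IFE keratinized-like cells had 14 of 51 higher and 5 lower (10.5% and 5.31%). Among them Defb14 rose from 36 and 38 counts to 178 and 177 counts (2.81 ± 0.21, edgeR adjusted p = 1.66e-05), and Il36a, the agonist that IL36RN opposes, from 28.4 and 26.4 CPM to 162.9 and 89.7 CPM (2.22 ± 0.22, edgeR adjusted p = 9.19e-05). Il18r1, a chain of the IL-18 receptor, fell there from 21.5 and 36.6 CPM to 10.1 and 10.3 CPM (-1.53 ± 0.25, edgeR adjusted p = 0.00149).

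Krt79+ Cst6-low cells had 7 of 46 higher and 1 lower (2.69% and 2.62%), with Ccl2 (0 and 2 against 46 and 34 counts) and S100a6 (2.32 ± 0.27) higher and Ccl6 (-1.95 ± 0.46) lower. Ccl2 passed the filter there only through the CerS4epi-/- mice. Krt79+ Cst6-high cells had 11 of 47 higher and 7 lower (8.40% and 7.05%). There Slpi, a protease inhibitor of the antimicrobial response, rose from 0.610 and 2.71 CPM to 27.2 and 23.4 CPM (4.08 ± 0.45, edgeR adjusted p = 0.00023). Il1a, the IL-1 agonist stored in keratinocytes, rose from 1.83 and 2.71 CPM to 14.4 and 18.8 CPM (2.89 ± 0.43, edgeR adjusted p = 0.00143), while Ccl6 fell (-3.10 ± 0.61). Slpi and Il1a passed the filter on low counts only through the CerS4epi-/- mice and so had to differ, and their tests add little. In Krt17+ Krt79-low cells, 5 of 50 rose and 5 fell (3.17% and 2.31%). Il1a fell there from 12.8 and 6.84 CPM to 0.507 and 0.356 CPM (-4.32 ± 0.61, edgeR adjusted p = 0.00486), where it passed the filter only through the control mice. Ccl22 fell and S100a6 rose in the same cells (-3.06 ± 0.61 and 2.91 ± 0.39).

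In the smaller classes 3 of 32 genes rose in Cst6-high Krt79-low cells (all genes in either direction, 3.08%), Slpi (0 and 0 against 66 and 60 counts, at least 17.5-fold higher), Ccl27a and Defb1. In Lhx2+ cells (6.84%), 1 of 20 rose (Ccl27a) and 1 fell (Defb6, -5.31 ± 0.71), and in Krt75+ cells (6.49%) 4 of 19 rose, Defb1 among them, and 2 fell (Wfdc21 and Il6ra). In Langerhans cell-like cells (0.656%) 1 of 35 fell (Wfdc21, with 161 and 232 against 1 and 6 counts), and no gene of 26 passed in T cell-like cells (0.165%) in edgeR, with 3 higher and 1 lower at an unadjusted p under 0.05.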

How the data were processed

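Single-cell RNA was measured in 4 libraries, 1 per mouse, 2 control and 2 CerS4epi-/-, grouped by genotype as labelled. Per the submitters' processing notes and methods, the authors trimmed reads with fastp 0.23.2 and aligned them with STAR 2.7.10a (STARsolo) to GRCm39, with reads of several genes shared out by estimation. The deposited matrices hold estimated counts (UMIs) for every gene and barcode, with no cell filter, of which 4.55% to 4.81% are not whole. The libraries total 39231945 to 53106317 counts. The strand setting is not given in the sources used here.

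Cells were barcodes of 1200 counts or more whose mitochondrial share was 20% or less. No doublet caller was run, so doublets are taken to be present. Classes were gated on UMIs of marker genes, with limits set after the marker counts were seen. Estimated counts were summed per mouse and class (at least 20 cells per mouse), rounded, filtered by filterByExpr, scaled by TMM and tested in edgeR 4.0.16 (R 4.3.3) with the quasi-likelihood test. Adjusted p-values are Benjamini-Hochberg over all genes of a fit, with a threshold of 0.05, and errors are standard errors. The difference between classes and the levels in control cells were fitted over class sums with the mouse as a term. The fits were tested on simulated data. Intervals of ratios and shares are exact 95% binomial intervals and, like limits from 3 counts for a count of 0, cover counting error only. Those of ratios take the counts as independent, although 1 cell can hold several of them. The split of a difference into shares and levels multiplies the change in each by the mean of the other. Related genes named are the 3 with the largest change among those past the threshold in a fit. Alternatives were DESeq2 1.42.0, its size factors, no count filter, a replicate block, at least 2000 counts, at most 10% mitochondrial counts, stricter gates, thinning to 1200 counts and leaving out each mouse. Members and gene lists were chosen with earlier results of these data known.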

Additional observations from a re-analysis of the deposited data

Results flagged for a closer look

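Differences between classes in the effect of genotype, each tested as a term of 1 edgeR fit over all classes, singled out 3 results. The log2 difference of Il18 in Krt79+ Cst6-high cells exceeded that in IFE basal-like cells by 3.25 ± 0.75 (edgeR adjusted p = 0.00328). Both CerS4epi-/- mice were above both control mice in the first class, and the groups overlapped in the second. The term was lost without the first control mouse (edgeR adjusted p = 0.0712) and without the second (0.0997), where a single control mouse is assumed to vary like the others. The difference of Il36rn in IFE keratinized-like cells exceeded that in IFE basal-like cells by 1.08 ± 0.29 (edgeR adjusted p = 0.017), with a rise in the first and a fall in the second. It was lost among cells with at most 10% mitochondrial counts (edgeR adjusted p = 0.0579). The difference of Il1rn between the same classes was 0.53 ± 0.16 (edgeR adjusted p = 0.0401), and it was lost with stricter gates (edgeR adjusted p = 0.0503) and without the first or second control mouse (0.249 and 0.198).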

How the results depend on the processing

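Over all cells 5 to 7 of the 10 genes passed under 11 alternatives, beside 5. Within classes 20 pairs of gene and class passed, 10 in DESeq2, 39 with no filter on low counts, 11 after thinning and 16 to 30 with a mouse left out. Of the 20, DESeq2 kept 10, lost 5 and gave no adjusted p for 5. The difference between classes was called for 3 pairs, 9 with no filter and 1 to 11 with a mouse left out. The low end of 1 came without the first or the second control mouse, the high ends of 11 and 7 without the first and the second CerS4epi-/- mouse. The log2 difference of Il36rn over all cells, which was not called, turned to -0.071 after thinning and ran from -0.0644 without control replicate 1 to 0.144 without control replicate 2. That of Il18 ran from -0.066 to 0.262 with the same mice left out. Of the values of single genes under an alternative, 305 kept their direction and side of the threshold, 35 lost the call, 12 gained it and 4 reversed. The calls of Cxcl1 and Il33 in IFE basal-like cells and Il18 in Krt79+ Cst6-high cells held under each alternative that gave a value. The labels give no shared litter or day for mice of the same number, and same-numbered mice did not deviate together (Pearson r = 0.03 over 9192 genes). With the replicate number as a replicate block 7 genes passed over all cells and 26 pairs within classes. The cause of these shifts was not tested. With 2 mice a genotype and few cells in the sebaceous gland-like, Lhx2+ and Krt75+ classes, most of the 10 genes could not be tested there.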
